A study of Mus musculus with 28 samples.

Results

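Neural crest stem cells (NCSCs) grown from mouse dorsal root ganglia (DRG) were compared with neural stem cells (NSCs) grown from mouse brain, to describe the gene programmes that separate a peripheral from a central neural stem cell culture. The comparison took the 3 samples that the labels call DRG NCSCs and the 3 samples they call Wnt1Cre-mTmG brain NSCs, 6 of the 28 samples of the series, and expression was read as RNA-seq counts per gene of polyA-selected RNA. For both groups the labels give the strain as C57BL/6 and the cell type as NSC, and they list no drug treatment. The study's methods instead describe its wild-type mice as CD1 or a mix of CD1 and C3H, and its transgenic mice as bred with these. The brain NSCs came from whole brain of mice that carry Wnt1-Cre and the mTmG reporter, in which Cre, made in the dorsal neural tube and the neural crest that leaves it, switches a membrane-bound red protein to a green one. They were passaged on gelatin in serum-free medium with EGF and bFGF. The NCSC labels name no allele, and the study describes the NCSCs that it stained as coming from adult wild-type DRG. The series drew on adult mice of around 4 to 6 weeks and postnatal mice of around day 1 to 5. Which of these ages gave the sequenced libraries, how many animals were pooled, and the medium of the NCSC culture are not given in the sources used here. Age, strain background, medium and passage can therefore not be told apart from the difference between ganglion and brain. The study counts the 3 samples of a group as biological replicates, but whether they came from separate cultures or mice is not stated for these libraries. The p-values therefore measure the spread between sequenced samples only. That spread was pooled over 12 samples, these and those of the other groups of the same experiment.

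The neural crest is a transient population of cells that leaves the dorsal neural tube of the embryo and gives rise to the neurons and glia of the peripheral nervous system, to melanocytes and, in the head, to connective tissue. Sox10 keeps crest cells multipotent and later specifies glia, and Foxd3 holds back their differentiation. Brain NSCs descend instead from cells that stay in the neural tube, and they rely on SoxB1 factors, Pax6, Notch signalling through Hes5 and the orphan receptor Nr2e1 to keep dividing without differentiating.

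Of 14448 genes tested, 5336 (36.9%) were called different, which means an adjusted p-value under 0.05 and a difference of at least 1 on the log2 scale (2-fold). Of all genes tested, 22.1% (3192) were called higher in NCSCs and 14.8% (2144) were called lower. The difference is given throughout as log2 of NCSCs over brain NSCs, from edgeR's quasi-likelihood test with Benjamini–Hochberg adjustment over all genes tested. The value after its ± sign is an approximate standard error, the size of the difference over the square root of the test's F statistic. It understates the error where a group holds few counts. It may also understate the error in NCSCs, whose libraries differed from each other more than the brain libraries did, because the spread is pooled over groups. Levels are in CPM (counts scaled to a common effective library size) as mean ± SD with n = 3. The median gene differed by 0.015, and the quartiles lay at −0.56 and 0.80. Without the limit on size, 11804 genes (81.7%) passed the adjusted p-value. A difference of at least 4 on the log2 scale was found for 1092 genes in the direction of NCSCs and for 377 in the direction of brain NSCs. In 270 of the genes called higher no brain library held a count, and in 55 of those called lower no NCSC library held one. For such genes the fold is given as a lower bound, computed against 3 counts in each library.

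The libraries held 21970406, 21543414 and 17051461 counts in NCSCs, and 10692113, 9846360 and 11315870 in brain NSCs. Depth was thus higher in every NCSC library, and 3 counts stood for 0.156 CPM on average in NCSCs and 0.276 CPM in brain NSCs. When the NCSC libraries were thinned at random to the depth of the shallowest brain library, 5085 genes were called. NCSC replicate 3 lay apart from the other two NCSC libraries: 5 genes were more than 2-fold above both of them and 10 were more than 2-fold below, while none of the other 5 libraries held such a gene. Among those farthest below were the mitochondrial mt-Nd4 (388 CPM against 1207 and 1472), mt-Nd2 (766 against 1830 and 2170) and mt-Cytb (1728 against 3685 and 4136). Farthest above were the non-coding Epb41l4aos (17.3 against 6.21 and 7.33) and Bc1 (58.6 against 26.3 and 24.3), and the ATP synthase subunit gene Atp5e (165 against 76.4 and 70.8). The share of counts on 37 mitochondrial genes was 1.02% in replicate 3, 1.75% and 1.92% in the other NCSC libraries and between 2.71% and 2.79% in brain NSCs. Replicate 3 also differed by gene length: its median difference from the mean of the other two was 0.20 on the log2 scale over 137 genes with under 1 kb of exon, 0.085 over 2085 genes of 1 to 3 kb and −0.059 over 7817 longer ones. Without replicate 3, 5277 genes were called, 3129 of them higher and 2148 lower.

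**Figure D1:**
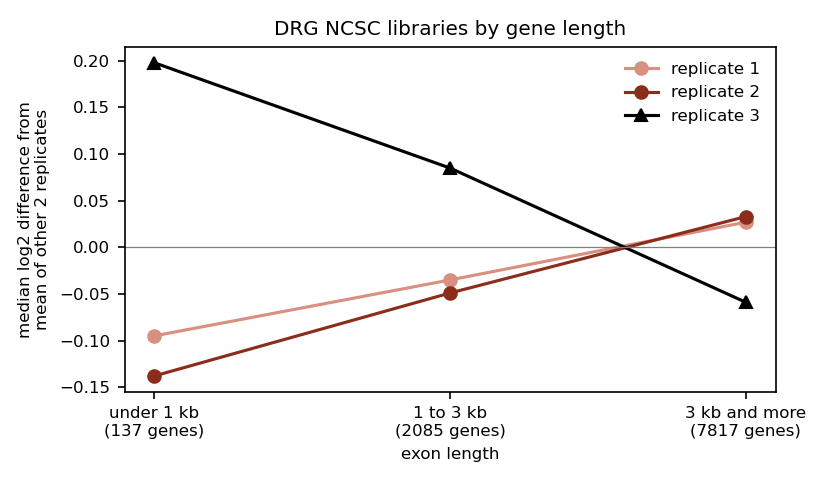
Median log2 difference of each NCSC replicate from the mean of the other two (y axis) in 3 classes of exon length (x axis, with the number of genes). Replicate 3 falls from 0.198 for the shortest genes to −0.059 for the longest, and the other two run the opposite way.

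The labels were checked first against the markers that define each culture. Sox10, the central transcription factor of the crest and its glia, was at 849, 926 and 668 CPM in NCSCs and at 13.5, 14.98 and 15.8 CPM in brain NSCs, a difference of 5.79 ± 0.12. All NCSC libraries lay far above all brain libraries, with replicate 3 the lowest NCSC library. Foxd3 was at 353, 391 and 389 CPM in NCSCs and had 1 count in the 3 brain libraries together, a ratio of 12337 with a 95% counting interval of 2214 to 487310. Ngfr, the p75 neurotrophin receptor by which crest cells are sorted, was at 1231, 1218 and 1276 CPM against 0.638, 0.493 and 0.517 CPM, a difference of 11.12 ± 0.08. Sox1, the earliest factor of the neural plate, was at 43.6, 47.8 and 45.8 CPM in brain NSCs, and in NCSCs it was at 0.142, 0 and 0.301 CPM. Olig2, a factor of ventral progenitors and of the oligodendrocyte lineage, stood at 1114, 1150 and 1144 CPM in brain NSCs and 16.6, 16.7 and 12.5 CPM in NCSCs, which made it lower by −6.20 ± 0.07. Pax6, a factor of radial glia, was at 35.8, 35.7 and 30.5 CPM in brain NSCs and 0.379, 0.388 and 0.181 CPM in NCSCs. The markers of each label were thus high in the culture that carries the label, and the groups did not overlap for any of these 6 genes. Non-overlap was common, since NCSCs lay above in 41.6% and brain NSCs above in 39.2% of all genes tested.

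Sox2, Nes and Gfap, markers that NSCs of both kinds share, lay closer together. Sox2, which keeps neural progenitors undifferentiated, was at 239, 238 and 218 CPM in NCSCs and at 324, 325 and 317 CPM in brain NSCs. The difference of −0.47 ± 0.04 was smaller than the 2-fold limit, although the groups did not overlap. Nes, an intermediate filament gene of neural progenitors, was at 1148, 1251 and 1566 CPM in NCSCs and 1731, 1715 and 1696 CPM in brain NSCs (−0.38 ± 0.07). Without replicate 3, the highest NCSC library for Nes, the difference was −0.51. Gfap, the filament of astrocytes and of non-myelinating Schwann cells, was at 92.6, 88.2 and 97.9 CPM in NCSCs and 45.9, 50.9 and 45.0 CPM in brain NSCs. Its difference of 0.97 ± 0.06 lay just under the limit and crossed it in 5 of 15 other fits, among them those without NCSC replicate 2 (1.01) or without brain NSC replicate 2 (1.02).

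**Figure D2:**
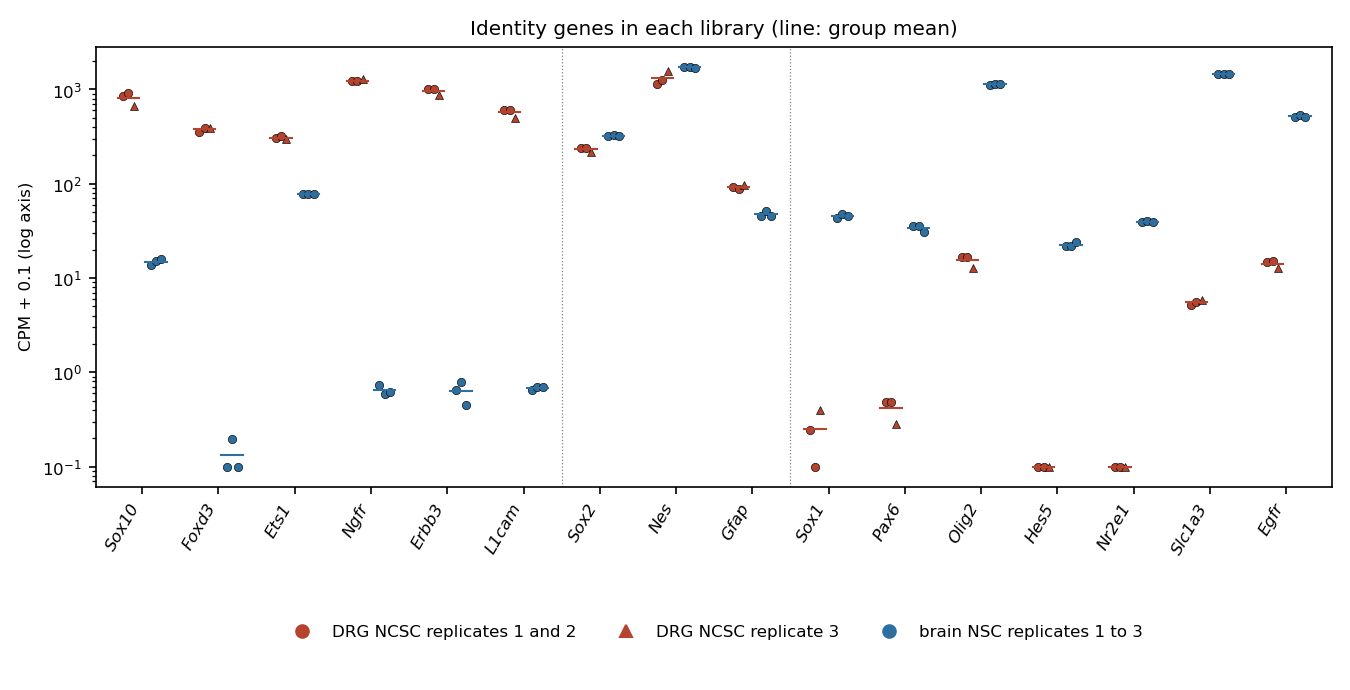
CPM + 0.1 on a log axis for 16 identity genes in each of the 6 libraries, with NCSCs in red (triangle for replicate 3), brain NSCs in blue and a line at each group mean. Sox10 to L1cam sit above the brain libraries in every NCSC library, Sox2, Nes and Gfap differ by less than 2-fold between group means or lie at that limit, and Sox1 to Egfr sit below.

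Of 14 crest transcription factors tested, 9 were called higher in NCSCs and 3 lower, with a median difference of 3.19 (2.53 with undetected genes at their bound). Zeb2, a repressor of epithelial genes in migrating crest, rose from 94.8 ± 1.4 to 656 ± 89 CPM, and Ets1, a regulator of cranial and cardiac crest, from 78.1 ± 0.1 to 309 ± 9 CPM. Tfap2a, an inducer of the crest at the neural plate border, was at 35.5 ± 5.4 against 2.95 ± 0.67 CPM. Snai1 and Snai2, which repress cadherins when crest cells leave the neural tube, were higher by 5.02 ± 0.34 and 4.31 ± 0.38 at levels under 9 CPM in every library. Pax3, a factor of the dorsal neural tube and premigratory crest, was at 5.59, 5.43 and 4.40 CPM in NCSCs with no count in brain NSCs, at least 18.6-fold higher. The other two SoxE genes went the opposite way from Sox10. Sox9 was at 8.35 ± 0.41 CPM in NCSCs against 141 ± 5 CPM in brain NSCs, and Sox8 at 4.73 ± 0.57 against 237 ± 9 CPM, differences of −4.08 ± 0.05 and −5.64 ± 0.06. Msx1, the third factor called lower, was below 4 CPM in both groups. Twist1, a factor of crest mesenchyme, did not separate the groups (4.12, 7.28 and 5.97 CPM against 7.47, 8.57 and 7.15 CPM).

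Of 12 crest surface receptors and related genes, 8 were called higher and 4 lower. Erbb3, the neuregulin receptor on which Schwann cell precursors depend, was at 1002, 1008 and 876 CPM in NCSCs and below 0.7 CPM in each brain library, higher by 10.83 ± 0.12. Cdh19, a cadherin of Schwann cell precursors, rose from 16.7 ± 1.9 to 968 ± 110 CPM. Ret, the signalling subunit of the GDNF receptor, was at 183 ± 9 against 0.824 ± 0.164 CPM. Itga4, an integrin subunit by which crest cells bind fibronectin, was higher by 1.65 ± 0.08. Gfra3, the co-receptor for artemin, was at least 63.1-fold higher. Lower in NCSCs were the endothelin receptor Ednrb (300 ± 51 against 821 ± 7 CPM), Kit (−1.40 ± 0.10), the neurotrophin-3 receptor Ntrk3 (−1.15 ± 0.06) and Sox5 (−1.39 ± 0.08). Ednrb lay lowest in NCSC replicate 3 (241 against 328 and 332 CPM).

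Schwann cells are the glia of peripheral nerves and arise from the crest. Of 19 of their genes tested, 17 were called higher and none lower (median difference 3.10). L1cam, an adhesion molecule of non-myelinating Schwann cells and axons, was at 602, 611 and 497 CPM in NCSCs and 0.546, 0.591 and 0.603 CPM in brain NSCs, higher by 9.92 ± 0.13. It shares exon sequence on one strand with Arhgap4, so reads of the 2 genes could be confused. Gap43, found in growing axons and immature Schwann cells, was higher by 1.62 ± 0.04, and Cadm4, an adhesion molecule between Schwann cell and axon, by 1.71 ± 0.07. Of the compact myelin genes, Mbp was at 41.5 ± 1.9 against 2.02 ± 0.21 CPM and Pmp22 at 254 ± 5 against 29.6 ± 0.5 CPM. Pou3f1, a factor of promyelinating Schwann cells, was higher by 1.27 ± 0.05, and Dhh, the hedgehog ligand that Schwann cells make, by 2.25 ± 0.07. Cnp lay just under the limit (0.96 ± 0.03).

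After nerve injury Schwann cells take on a repair state, driven by Jun, in which they secrete trophic factors. Of 12 repair genes 10 were called higher and 1 lower. Jun was at 550, 574 and 559 CPM in NCSCs and at 157, 167 and 168 CPM in brain NSCs, higher by 1.78 ± 0.04. Artn, a ligand of the Gfra3 and Ret receptor pair, was at 178, 174 and 168 CPM and had 2 counts in the brain libraries together, a ratio of 2847 with a counting interval of 788 to 23512. Gdnf, the ligand of Gfra1 and Ret, was at least 33.3-fold higher at 9.19 ± 1.67 CPM, and its co-receptor Gfra1 rose from 29.1 ± 1.5 to 466 ± 33 CPM. Runx2 was higher by 5.86 ± 0.13, the cytokine gene Lif by 4.69 ± 0.13, Clcf1 by 4.55 ± 0.19 and the neurotrophin gene Bdnf by 2.94 ± 0.11. Ccl2, a chemokine that attracts monocytes to injured nerve, was at 61.95, 62.3 and 66.2 CPM against 2.82, 1.58 and 2.67 CPM. The 1 member called lower was Olig1 (117 ± 3 against 2864 ± 4 CPM). Satellite glia wrap the cell bodies in the ganglion. Of 9 of their genes, 3 were called higher (Apoe, Pou3f1 and Cdh19) and 5 lower, among them Fabp7 (77.9 ± 11.4 against 2692 ± 6 CPM). Pou3f1 and Cdh19 are also in the Schwann list, and Fabp7 is in that of radial glia and astrocytes, many of whose genes were high in brain NSCs. Whether satellite glia were present in the culture can therefore not be read from these counts.

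The central programme was called lower almost throughout. Of 23 transcription factors of central NSCs, 20 were called lower and none higher, with a median difference of −4.62. Nr2e1 was at 39.1, 40.3 and 39.6 CPM in brain NSCs without a count in NCSCs, at least 254-fold lower, and Hes5, the Notch target of neural progenitors, was likewise at least 144-fold lower (21.6, 21.8 and 24.04 CPM in brain NSCs). Pou3f3 fell from 340 ± 4 to 0.536 ± 0.128 CPM, Sox21 from 89.7 ± 3.8 to 0.569 ± 0.130 CPM, and Dbx2, a factor of the ventricular zone, from 86.1 ± 2.7 to 0.244 ± 0.054 CPM. Sox3, a relative of Sox1 and Sox2, was lower by −3.83 ± 0.05. The NFI factors, which time gliogenesis, fell less: Nfia by −2.18 ± 0.05, Nfib by −1.33 ± 0.03 and Nfix by −1.65 ± 0.05. The 3 that passed no call were Sox2, Hes1 (61.0 ± 5.9 against 41.2 ± 1.8 CPM) and Id4 (15.3 ± 1.3 against 9.64 ± 1.41 CPM).

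Genes of radial glia and astrocytes followed, with 15 of 21 called lower and 1 higher. Slc1a3, the glial glutamate transporter GLAST, was at 1446, 1447 and 1447 CPM in brain NSCs and 5.07, 5.43 and 5.79 CPM in NCSCs. Aldh1l1, a folate enzyme used as a marker of astrocytes, was at 985 ± 15 against 3.24 ± 1.28 CPM, and Hepacam, an adhesion molecule of astrocyte endfeet, at 457 ± 12 against 1.72 ± 0.10 CPM. Ptprz1, a receptor phosphatase of radial glia, was lower by −2.61 ± 0.06 and stayed at 791 ± 95 CPM in NCSCs. The exception was Tnc, a matrix glycoprotein of neural stem cell niches and of injured nerve, at 4158, 4240 and 3621 CPM in NCSCs against 1007, 1008 and 1034 CPM. Of 14 genes of the oligodendrocyte lineage 5 were called higher and 7 lower, so that Olig1, Olig2 and Nkx2-2 (−6.96 ± 0.20) were lower while Cspg4, Gpr17, Myrf, Mag and Matn4 were higher.

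**Figure D3:**
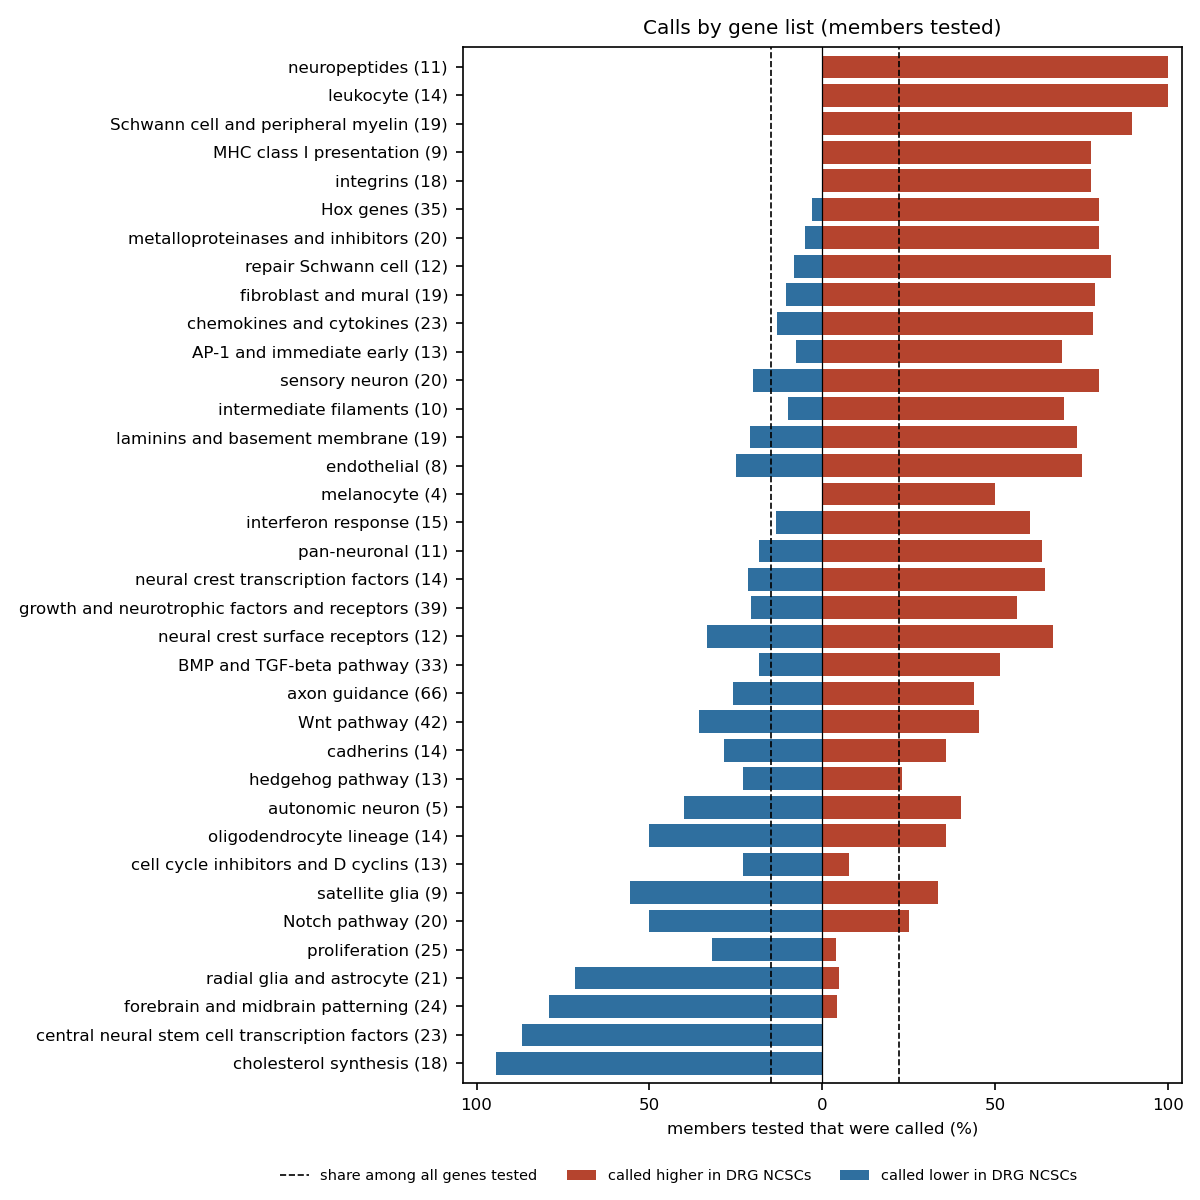
Share of the members tested that were called higher (red, right) or lower (blue, left) in NCSCs, for 36 gene lists with the number tested in parentheses. Dashed lines mark the shares among all genes tested, 22.1% and 14.8%. Every tested leukocyte and neuropeptide gene was called higher, while cholesterol synthesis and central NSC transcription factors had no gene called higher.

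Position along the body axis separated the cultures as well. Homeobox genes of the Hox clusters are switched on in order from the hindbrain to the tail, and those of the forebrain and midbrain in front of them. Of 35 Hox genes tested, 28 were called higher in NCSCs and 1 lower, with a median difference of 5.21 (3.58 with undetected genes at their bound). Hoxb9 was at 25.3, 23.5 and 21.03 CPM in NCSCs with no count in brain NSCs, at least 84.4-fold higher. Hoxb7 was at 24.8, 19.9 and 30.5 CPM and had 1 count in brain NSCs. Hoxd8 (11.7 ± 0.8 CPM), Hoxc6 (9.40 ± 0.84 CPM) and Hoxa9 (7.94 ± 1.10 CPM) had no count in brain NSCs either, which bounds their rise at 42.5-fold, 34.1-fold and 28.8-fold. Hoxb4 was at 12.5 ± 1.4 against 0.524 ± 0.163 CPM. Members of all 4 clusters were present, up to number 10 in clusters a, c and d and number 9 in cluster b, with Hoxa10 at 3.94 ± 0.15 CPM and Hoxc10 at 3.31 ± 0.63 CPM, and the tested genes numbered 11 to 13 stayed below 0.3 CPM on average.

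**Figure D4:**
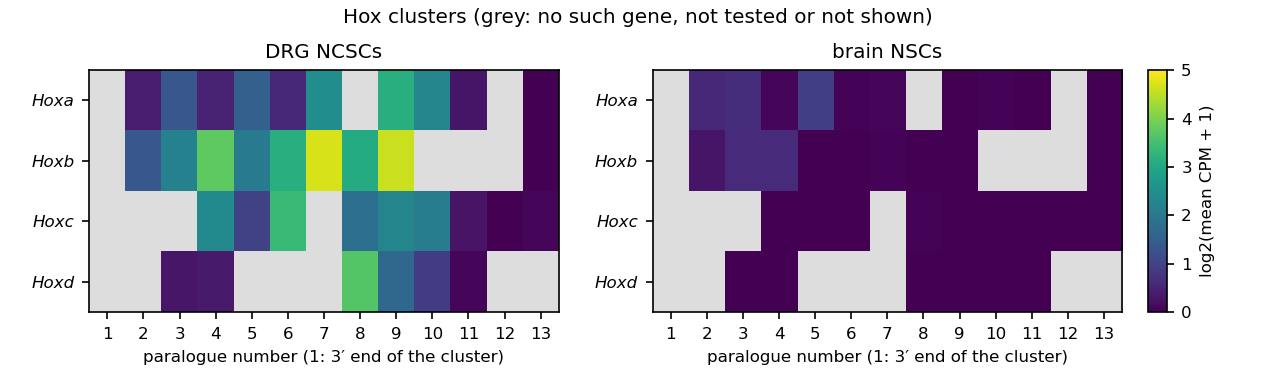
Mean level of each Hox gene as log2(CPM + 1), colour scale from 0 to 5, by cluster (rows) and paralogue number (columns) in NCSCs (left) and brain NSCs (right), n = 3 each. Grey marks numbers that a cluster lacks and genes not tested or not shown. NCSCs are brightest at Hoxb7 and Hoxb9 and dark beyond number 10, and brain NSCs stay below a mean of 1 CPM for every gene shown.

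Forebrain and midbrain factors went the opposite way, with 19 of 24 called lower in NCSCs and 1 higher. Six3, which specifies the anterior forebrain, was at 62.02, 63.8 and 65.4 CPM in brain NSCs with 2 counts in the NCSC libraries together, and its antisense transcript Six3os1 was at least 987-fold lower. These overlap on opposite strands, so their reads may not be separable. Emx2, a factor of the dorsal telencephalon, was at 34.0 ± 0.5 against 0.016 ± 0.027 CPM and Lhx2 at 65.0 ± 3.0 against 0.725 ± 0.095 CPM. Otx1 and En2 were called lower too. Zic4 was the one called higher (1.13 ± 0.31 against 0.240 ± 0.134 CPM), and its neighbour Zic1, a factor of the dorsal neural tube, was at 9.21 ± 0.57 against 4.81 ± 0.90 CPM.

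Among genes with a mean of at least 10 CPM over the 6 libraries, the 12 largest rises were Gzmb, Nts, Adcyap1, Sncg, Foxd3, Fyb, Slc17a6, Lgi4, Fibin, Scn9a, Crym and Mrgprf. Gzmb, a serine protease known from cytotoxic lymphocytes, was at 196, 199 and 156 CPM in NCSCs with no count in brain NSCs, at least 667-fold higher. Lgi4, which Schwann cells secrete and need for myelination, was at 221, 240 and 202 CPM with 1 count in brain NSCs. Sncg, a synuclein of sensory neurons, was at least 289-fold higher, Fyb, an adaptor protein of leukocytes, at least 280-fold, and Slc17a6, a vesicular glutamate transporter, at least 231-fold. Among the 12 largest falls were Six3os1, Kcnj16, Nr2e1, Hes5, Six3, Emx2, Mlc1, Lpo, Pantr1, Rps15a-ps8 and Btbd17. Kcnj16, a potassium channel of astrocytes, was at 139, 140 and 136 CPM in brain NSCs without a count in NCSCs, at least 887-fold lower, and Mlc1, an astrocyte membrane protein, was lower by −10.26 ± 0.09.

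Basement membranes surround Schwann cells and also blood vessels and other tissues. Of 19 laminin, collagen IV, nidogen and perlecan genes 14 were called higher and 4 lower, with summed levels of 13221 to 14103 CPM in NCSCs and 1623 to 1633 CPM in brain NSCs. Col4a1 was at 2967, 3027 and 3185 CPM against 109, 114 and 112 CPM, and Nid1, which links laminin to collagen IV, at 1589, 1621 and 1266 CPM against 11.1, 11.1 and 9.74 CPM. Col4a2 (6.18 ± 0.09), Hspg2 (4.88 ± 0.06), Lama2 (5.05 ± 0.12), the laminin chain of the Schwann basement membrane, Lama4 (4.57 ± 0.07) and Agrn (1.74 ± 0.04), an organiser of synapses, rose with them. Fibroblast and mural genes rose in the same libraries (15 of 19 called higher, summed level 9989 to 10283 against 190 to 197 CPM), as did endothelial genes (6 of 8 called higher, 52.4 to 56.4 against 22.1 to 24.8 CPM), and their part in the matrix, integrin and metalloproteinase differences was not tested. Lama5 was lower (68.6 ± 2.8 against 207 ± 5 CPM), and Col4a6 fell from 27.7 ± 0.6 to 0.402 ± 0.241 CPM. Integrins are the receptors for these proteins, and 14 of 18 were called higher and none lower, among them Itga8 (615 ± 81 against 7.12 ± 1.05 CPM), Itga7 (498 ± 26 against 31.7 ± 0.3 CPM), Itga1 (443 ± 37 against 11.97 ± 0.08 CPM), and Itgb4 (50.6 ± 2.9 against 0.181 ± 0.088 CPM). Itgb1, the common β subunit, was higher by 1.31 ± 0.04 and the laminin receptor subunit Itga6 by 1.86 ± 0.04. Of 14 cadherins 5 were called higher (35.7%) and 4 lower (28.6%), against 22.1% and 14.8% of all genes tested. Cdh6 was higher by 1.85 ± 0.08, and Cdh20, Cdh4 and Cdh22 were lower by −2.70 ± 0.06, −5.52 ± 0.06 and −6.05 ± 0.08.

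Matrix metalloproteinases, which fibroblasts and macrophages also make, cut these proteins, and with their Timp inhibitors 16 of 20 were called higher and 1 lower. Mmp17 rose from 19.9 ± 1.5 to 1032 ± 42 CPM, Mmp2 from 3.19 ± 0.23 to 530 ± 21 CPM and the membrane-bound Mmp14 from 105 ± 3 to 775 ± 49 CPM. Timp2, which takes part in the activation of Mmp2, rose from 134 ± 5 to 1521 ± 115 CPM, and Timp1 by 4.78 ± 0.12. Timp4 was the one called lower (1.88 ± 0.54 against 89.1 ± 3.1 CPM). Mmp3, Mmp13 and Mmp10 lie in 1 cluster on chromosome 9 and were near 0 in brain NSCs. Mmp3 was at 372, 356 and 437 CPM in NCSCs with 3 counts in the brain libraries together (a ratio of 4196, counting interval 1436 to 20347), Mmp13 was at 229, 228 and 230 CPM, and Mmp10 at 69.0, 70.1 and 72.4 CPM.

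These 3 genes are also the called members of the group whose promoter window holds an AP-1 motif, the binding sequence of Jun and Fos dimers, and their promoters are shown for that reason. The windows run from 250 bases before to 50 bases after the gene start (RefSeq, GRCm38.p6), 5′ to 3′, with the motif TGANTCA, searched on both strands, in capitals. It starts 46 bases before the start of Mmp3 (chr9:7445572-7445871, plus strand), 35 bases before that of Mmp13 (chr9:7272264-7272563, plus strand) and 63 bases before that of Mmp10 (chr9:7502092-7502391, plus strand).
Mmp3: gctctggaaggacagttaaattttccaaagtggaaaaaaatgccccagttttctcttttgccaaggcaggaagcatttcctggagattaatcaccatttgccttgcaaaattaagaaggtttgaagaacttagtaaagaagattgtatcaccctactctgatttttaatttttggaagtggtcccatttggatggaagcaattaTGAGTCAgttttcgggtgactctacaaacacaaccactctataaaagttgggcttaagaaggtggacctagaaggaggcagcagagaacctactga
Mmp13: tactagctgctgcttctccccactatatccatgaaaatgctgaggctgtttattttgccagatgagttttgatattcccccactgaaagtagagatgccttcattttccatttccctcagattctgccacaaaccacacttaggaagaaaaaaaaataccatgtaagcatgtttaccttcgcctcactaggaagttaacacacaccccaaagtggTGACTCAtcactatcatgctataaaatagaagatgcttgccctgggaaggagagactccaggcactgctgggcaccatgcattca
Mmp10: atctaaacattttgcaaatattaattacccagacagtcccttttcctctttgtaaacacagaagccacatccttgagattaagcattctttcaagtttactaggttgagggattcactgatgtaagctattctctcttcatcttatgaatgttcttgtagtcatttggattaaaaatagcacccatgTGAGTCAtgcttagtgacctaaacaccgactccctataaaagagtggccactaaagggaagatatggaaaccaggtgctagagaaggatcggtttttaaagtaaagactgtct
Of 13 called metalloproteinase and Timp genes with a window in the table, these 3 held the motif. It was present in 7.93% of all 27025 windows and in 4.81% of 11154 windows of genes tested. By call, it was in 7.33% of 2348 windows of genes called higher, 4.58% of 1573 called lower and 4.04% of 7233 not called. Other motifs were searched in the same 13 windows. The E-box CAGCTG and the SOX motif ACAAAG were each in 3 of them, against 15.2% and 13.4% among genes tested. The TEAD motif GGAATG was in 1, against 11.8%. A motif match is a description of the letters and does not show binding.

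The AP-1 factors themselves were called higher in 9 of 13 cases together with other immediate early genes, and 1 was lower. Atf3, which is induced in injured neurons and Schwann cells, was at 297, 289 and 326 CPM against 1.27, 0.985 and 0.862 CPM. Fosl2 was at 296 ± 12 against 17.99 ± 1.08 CPM, Junb was at 72.2 ± 5.1 against 15.7 ± 0.8 CPM and Fos by 1.68 ± 0.06. Egr1, an early response gene of growth factor signalling, went the opposite way (20.9 ± 1.3 against 225 ± 5 CPM).

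Of 39 growth and neurotrophic factors and receptors 22 were called higher and 8 lower. Egfr, the receptor for EGF, was at 513, 532 and 514 CPM in brain NSCs and 14.6, 14.9 and 12.8 CPM in NCSCs, lower by −5.20 ± 0.05. Fgfr3 (194 ± 7 against 0.703 ± 0.605 CPM), Fgfr2 (34.8 ± 1.2 against 2.35 ± 0.34 CPM) and Erbb4 (38.6 ± 3.9 against 0.350 ± 0.289 CPM) were lower too, whereas Erbb2, the partner of Erbb3, was higher by 1.98 ± 0.05. Met, the receptor for hepatocyte growth factor, was at 87.6 ± 6.1 against 0.760 ± 0.090 CPM and the ligand gene Fgf5 at 151 ± 5 against 0.268 ± 0.166 CPM. The BDNF receptor Ntrk2 was at 815, 797 and 795 CPM in brain NSCs and 42.1, 45.2 and 39.1 CPM in NCSCs.

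Of 20 Notch pathway genes 10 were called lower (50%) and 5 higher (25%), against 14.8% and 22.1% of all genes tested. The ligands Dll1 (−6.30 ± 0.10) and Dll3 (−7.18 ± 0.16), the receptor Notch3 (−3.01 ± 0.05), the glycosyltransferase Lfng (−4.78 ± 0.04) Hes6 (−2.06 ± 0.08) and the target Hey1 (−2.22 ± 0.08) were lower with Hes5, while Heyl, a related target, was at 90.3, 94.0 and 74.1 CPM in NCSCs against 0.273, 0.098 and 0.172 CPM. Of 33 genes of BMP and TGF-β signalling 17 were called higher and 6 lower. The ligand gene Tgfb1 (108 ± 3 against 1.25 ± 0.42 CPM) and the receptors Tgfbr2 (320 ± 18 against 14.9 ± 0.8 CPM) and Tgfbr3 (6.32 ± 0.16) were higher, with Tgfbr1 (1.03 ± 0.05) and Acvr2a (1.08 ± 0.06) close to the limit. Bmpr1b (−7.11 ± 0.10), the ligand gene Bmp7 (−3.06 ± 0.07) and the target Id3 (−1.52 ± 0.04) were lower. Wnt genes were mixed, with 19 of 42 called higher and 15 lower. Nkd2, an inhibitor of the pathway, rose from 1.06 ± 0.40 to 449 ± 9 CPM Fzd1 was higher by 1.53 ± 0.04 and the ligand gene Wnt16 was called higher, while Fzd3 (−1.69 ± 0.04), Wnt7a (−7.22 ± 0.10), Wnt5a (−3.82 ± 0.07), Fzd10 (−6.11 ± 0.10) and the target Axin2 (−3.06 ± 0.07) were lower. Of 13 hedgehog pathway genes 3 were called higher (Dhh, Gli1 and Gli3) and 3 lower (Gli2, Cdon and Gas1). Each is 23.1% of the list, against 22.1% called higher and 14.8% called lower among all genes tested. The call of Gli2 rested on a difference of −1.01 ± 0.18 and was lost in 7 of 15 other fits, among them those without NCSC replicate 3 (−0.80), the lowest library for it (3.19 against 5.02 and 6.60 CPM), and without brain NSC replicate 2 (−0.997).

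Guidance molecules, which steer axons and migrating crest, were called higher in 29 of 66 cases and lower in 17. The class 3 semaphorin genes Sema3b (302 ± 5 against 0.733 ± 0.075 CPM), Sema3e (322 ± 11 against 0.665 ± 0.254 CPM) and Sema3g (157 ± 17 against 0.122 ± 0.052 CPM), with Sema3c (5.42 ± 0.09), Sema4f (8.16 ± 0.12) and the receptor Plxnb3 (2.96 ± 0.05), were higher. Sema5b (−7.12 ± 0.09), Ephb1 (−6.41 ± 0.13) and the attractant Ntn1 (−2.07 ± 0.04) were lower.

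Of 18 genes of cholesterol synthesis 17 were called lower in NCSCs and none higher (median difference −1.77). Hmgcs1, which makes HMG-CoA, was at 136, 130 and 134 CPM in NCSCs and 1403, 1395 and 1364 CPM in brain NSCs. Sqle, an epoxidase of the pathway, was lower by −1.81 ± 0.04, Cyp51 by −2.12 ± 0.04 and Srebf2, the regulator of the pathway, by −1.06 ± 0.04. Of 25 genes of S phase and mitosis 8 were called lower and 1 higher, and 24 of 25 lay lower in all NCSC libraries than in any brain library, against 39.2% of all genes tested. Mki67 was at 442, 441 and 357 CPM against 734, 721 and 755 CPM (−0.83 ± 0.06), Top2a at 408, 393 and 413 CPM against 737, 749 and 727 CPM (−0.87 ± 0.03), while the called members included Ccnb1 (−1.89 ± 0.05), Rrm2 (−1.57 ± 0.05), Mcm2 (−1.11 ± 0.04), Ccna2 (−1.07 ± 0.03) and Cdk1 (−1.01 ± 0.04). The call of Cdk1 was lost in 8 of 15 other fits, among them those without NCSC replicate 1 (−0.98) or NCSC replicate 2 (−0.98). E2f1 was the one higher (1.32 ± 0.09). Of 13 cell cycle inhibitors and D cyclins 3 were called lower (23.1%) and 1 higher (7.69%), against 14.8% and 22.1% of all genes tested. Ccnd2 fell from 1407 ± 8 to 108 ± 4 CPM and Ccng1 from 556 ± 12 to 271 ± 7 CPM, whereas Ccnd1 was at 915 ± 21 against 1476 ± 14 CPM and passed no call. Cdkn2a was at 16.6, 17.7 and 27.4 CPM against 95.7, 99.3 and 94.3 CPM, and Cdkn1c was the one higher (16.5 ± 0.2 against 1.21 ± 0.30 CPM).

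Genes of cells other than crest and Schwann cells were also present in the NCSC libraries. In bulk RNA, fewer cells of a type and less RNA per cell cannot be told apart. All 14 leukocyte genes tested were called higher (median difference 9.88, or 6.62 with undetected genes at their bound). Their summed level was 797 to 841 CPM in NCSCs and 2.37 to 3.27 CPM in brain NSCs. Lyz2, the lysozyme of macrophages, was at 524, 519 and 564 CPM in NCSCs. The macrophage receptor genes Csf1r (48.2, 45.6 and 48.6 CPM) and Adgre1 (40.4, 41.1 and 40.6 CPM), the complement genes C1qa (31.8, 32.5 and 36.7 CPM) and C1qb (33.2, 34.3 and 39.1 CPM) and the pan-leukocyte gene Ptprc (11.7, 13.1 and 10.6 CPM) stood at similar levels in the 3 libraries. The T cell gene Cd3e and the B cell gene Cd79a were not among the genes tested. Ccl2, Fyb and MHC class I genes are known in macrophages too, and the part of these cells in any of the differences was not tested.

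Of 19 fibroblast and mural cell genes 15 were called higher and 2 lower. Postn, a matrix protein made by Schwann cells, fibroblasts and crest derivatives, was at 4257, 4281 and 3755 CPM in NCSCs and 3.83, 2.86 and 1.90 CPM in brain NSCs. Col1a1 was at 703, 675 and 934 CPM against 3.10, 2.96 and 2.59 CPM, Col1a2 at 872 ± 108 against 3.51 ± 0.20 CPM and Col3a1 at 1297 ± 141 against 4.27 ± 0.67 CPM. Col5a1 was higher by 5.21 ± 0.07. For Col1a1, Col1a2 and Col3a1 replicate 3 was the highest NCSC library. Pdgfrb (145 ± 8 CPM), Dcn (102 ± 3 CPM) and Lum (59.1 ± 0.5 CPM) were below 1 CPM in each brain library, whereas Pdgfra passed no call (16.7 ± 1.1 against 22.9 ± 0.5 CPM) and Acta2, an actin of smooth muscle and myofibroblasts, was lower (3.46 ± 0.39 against 10.2 ± 1.2 CPM). The summed level of the list was 9989 to 10283 CPM in NCSCs and 190 to 197 CPM in brain NSCs. Of 8 endothelial genes 6 were called higher and 2 lower, at summed levels of 52.4 to 56.4 CPM against 22.1 to 24.8 CPM. Cdh5 was at 23.4 ± 3.2 CPM, Egfl7 at 15.9 ± 1.9 CPM, Vwf at 2.95 ± 0.39 CPM and Pecam1 at 2.34 ± 0.44 CPM in NCSCs, and Flt1 was lower (5.55 ± 0.44 against 18.7 ± 1.1 CPM). The part of these cells was not tested.

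Sensory neurons are the main neurons of the ganglion, and 16 of 20 of their genes were called higher and 4 lower (median 7.74, or 5.11 with undetected genes at their bound). The transcription factor genes Isl1 (8.15, 9.65 and 8.44 CPM in NCSCs, no count in brain NSCs) and Pou4f1 (17.5, 16.1 and 19.1 CPM against 0.455, 0.887 and 0.776 CPM) specify these neurons. The nociceptor sodium channel genes Scn9a and Scn10a were at least 150-fold and 75.8-fold higher, and Calca, P2rx3, Trpv1 and Avil were called higher. The progenitor factor genes Neurog2 and Neurod1, and the receptors Ntrk2 and Ntrk3, were the 4 lower. Neurog2 had no count in NCSCs and only 6 counts in the brain libraries together, near the depth limit. This lies under the minimum total of 15, so Neurog2 passed the filter only through the pNSC libraries fitted alongside, outside this comparison. Neurod1 was at 0.095, 0.437 and 0.060 CPM against 0.729, 0.591 and 0.776 CPM. Its call was lost when the NCSC libraries were thinned to brain NSC depth (−1.30). In a fit of only the samples compared, Neurod1 did not pass the filter. Of 11 neuropeptide genes all 11 were called higher: Nts at 112, 116 and 128 CPM and Adcyap1 at 100, 98.2 and 103 CPM had no count in brain NSCs and were at least 430-fold and 364-fold higher, and the bounds for Npy and Gal were 73.9-fold and 64.5-fold. Npy and Gal were highest in replicate 3 (25.3 against 17.92 and 17.999 CPM, and 23.5 against 14.5 and 15.4 CPM). Penk was at 41.2 ± 4.2 against 0.247 ± 0.066 CPM.

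General neuronal genes rose with them in 7 of 11 cases, and 2 were lower. Stmn2, a microtubule regulator of growing axons, was at 259, 258 and 249 CPM against 0.091, 0.098 and 0.172 CPM, Tubb3 at 309 ± 9 against 11.5 ± 0.5 CPM and Uchl1 at 395 ± 61 against 39.8 ± 1.2 CPM. The neurofilament genes Nefl (423 ± 15 against 4.71 ± 1.02 CPM), Nefm (395 ± 23 against 15.2 ± 1.0 CPM) and Nefh (85.0 ± 8.5 CPM with 3 counts in brain NSCs), and Prph, the filament of peripheral neurons (159 ± 10 against 0.304 ± 0.135 CPM), were higher, as was Vim (6976 ± 204 against 2858 ± 29 CPM). Lower were Map2 (124 ± 13 against 974 ± 8 CPM), Dcx (1.83 ± 0.19 against 9.84 ± 0.08 CPM) and Ina (9.24 ± 0.37 against 26.6 ± 2.1 CPM). Whether this RNA came from neurons in the culture or from the stem cells was not tested. Genes of the other crest fates were low. Of 5 autonomic genes tested Gata2 and Gata3 were called higher and Insm1 and Ddc lower, with sums of 9.46 to 10.1 CPM in NCSCs. Gata3 was at 0.190, 0.388 and 0.301 CPM in NCSCs and had 2 counts in the brain libraries together. Ddc was at 0.284, 0.097 and 0.422 CPM against 0.729, 1.08 and 1.03 CPM, so both lay near the depth limit. The call of Gata3 was lost without NCSC replicate 2 or without any 1 of the brain NSC replicates (1.63 to 2.47). In a fit of only the samples compared, Gata3 did not pass the filter. The genes Phox2a, Th and Dbh were not among the genes tested. The 4 melanocyte genes tested summed to 13.1 to 15.8 CPM in NCSCs, and Tyrp1 (3.43 ± 0.35 CPM) and Dct (1.05 ± 0.25 CPM) were called higher.

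Several lists of immune genes held mostly members called higher in NCSCs. Of 9 genes of MHC class I presentation 7 were called higher and none lower, with H2-D1 at 175 ± 5 against 18.4 ± 1.5 CPM and B2m at 335, 319 and 244 CPM against 53.6, 53.4 and 50.4 CPM. H2-K1 and Tapbp were higher by 1.06 ± 0.05 and 1.11 ± 0.06. MHC class I genes are near copies of each other, so counts may be divided between them. Of 15 interferon response genes 9 were called higher and 2 lower, among them Bst2 (19.6 ± 3.5 against 1.27 ± 0.43 CPM), Gbp2 (3.62 ± 0.10) and Irf1 (34.7 ± 1.0 against 12.2 ± 0.7 CPM), while Gbp3 was lower (−1.31 ± 0.09). Of 23 chemokine and cytokine genes 18 were called higher and 3 lower. Csf1, the ligand of Csf1r, rose from 51.6 ± 0.5 to 190 ± 18 CPM and Cxcl5 was at least 31.6-fold higher, while Cx3cl1 fell from 195 ± 7 to 14.9 ± 1.5 CPM. These lists rose in the same libraries as the leukocyte genes, at 797 to 841 CPM in sum.

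Genes of the sex chromosomes differed between the groups. Xist, the RNA that coats an inactive X chromosome, was at 339, 327 and 293 CPM in NCSCs and had 3 counts in the brain libraries together. The Y-linked Ddx3y was present in both (69.2, 61.9 and 72.9 CPM against 73.6, 70.2 and 74.5 CPM), and Kdm5d (−1.77 ± 0.06), Eif2s3y (−1.35 ± 0.05) and Uty (−1.20 ± 0.07) were lower in NCSCs. Each NCSC library thus held RNA of an inactive X and of a Y chromosome, and the brain libraries held Y-linked RNA with almost no Xist. The part of sex in the other differences was not tested.

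The same 3 NCSC libraries were then set against the other 2 brain NSC lines of the series, labelled Brain-NSC (2 samples) and Sox2-GFP brain NSCs (3 samples). The study analysed these lines in other experiments. Their libraries were deeper, with 20079812 to 20697929 counts in Brain-NSC and 17026140 to 22637031 in Sox2-GFP brain NSCs. Line, experiment, genotype, age and depth can therefore not be told apart in these comparisons. The 3 comparisons share the NCSC libraries and are not independent. Against Brain-NSC 6027 of 14738 genes tested were called (40.9%), and against Sox2-GFP brain NSCs 5498 of 14473 (38.0%). With the 11 libraries scaled together, Foxd3 was at 374 CPM in NCSCs, had 1 count in Wnt1Cre-mTmG brain NSCs and none in the other lines. Sox10 was at 807 CPM in NCSCs, 14.6 CPM in Wnt1Cre-mTmG brain NSCs, 9.55 CPM in Sox2-GFP brain NSCs and 0.075 CPM (3 counts) in Brain-NSC. Central transcription factors were called lower in 19 of 23 cases against Brain-NSC and in 21 of 23 against Sox2-GFP brain NSCs, and Schwann genes were called higher in 16 of 19 against each. All 14 leukocyte genes and 15 of 19 fibroblast and mural genes were called higher against each line.

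Other genes differed in direction or size between the comparisons with the 3 brain lines. Pax3 was at 5.09 CPM in NCSCs, had no count in Wnt1Cre-mTmG brain NSCs or Brain-NSC, and was at 22.1, 21.03 and 20.01 CPM in Sox2-GFP brain NSCs, so it was lower in NCSCs than in that line (−2.03). Zic4, called higher in NCSCs against Wnt1Cre-mTmG brain NSCs, and Zic1, which passed no call there, were lower against Brain-NSC (Zic4 −1.70, Zic1 −3.09) and Sox2-GFP brain NSCs (Zic4 −2.72, Zic1 −3.72). Gfap was higher by 4.50 against Brain-NSC and differed by −0.25 against Sox2-GFP brain NSCs, and Nes was higher in NCSCs only against the latter (1.11). Of the cholesterol genes 17 of 18 were called lower against Brain-NSC and 3 against Sox2-GFP brain NSCs. Proliferation genes were called lower in 9 of 25 cases against Brain-NSC, and in 1 against Sox2-GFP brain NSCs, with 4 higher. Ccnd1 was at 907 CPM in NCSCs, between Wnt1Cre-mTmG brain NSCs (1466 CPM) and Brain-NSC (729 CPM), and above Sox2-GFP brain NSCs (177 CPM). Some large falls varied with the line. In Wnt1Cre-mTmG brain NSCs, Brain-NSC and Sox2-GFP brain NSCs, Six3os1 was at 153, 0.353 and 19.7 CPM. Six3 was at 63.3, 1.56 and 10.2 CPM, and Lpo at 126, 56.5 and 6.32 CPM. Rps15a-ps8 had no count in Brain-NSC, and Col4a6 was at 0.274 CPM there against 0.398 CPM in NCSCs. Kcnj16, Mlc1, Btbd17, Pantr1, Nr2e1 and Hes5 stayed far above NCSCs in each line. Xist was at 1897 CPM in Brain-NSC, which had no count of Ddx3y or Kdm5d, and at 0.276 CPM in Sox2-GFP brain NSCs.

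**Figure D5:**
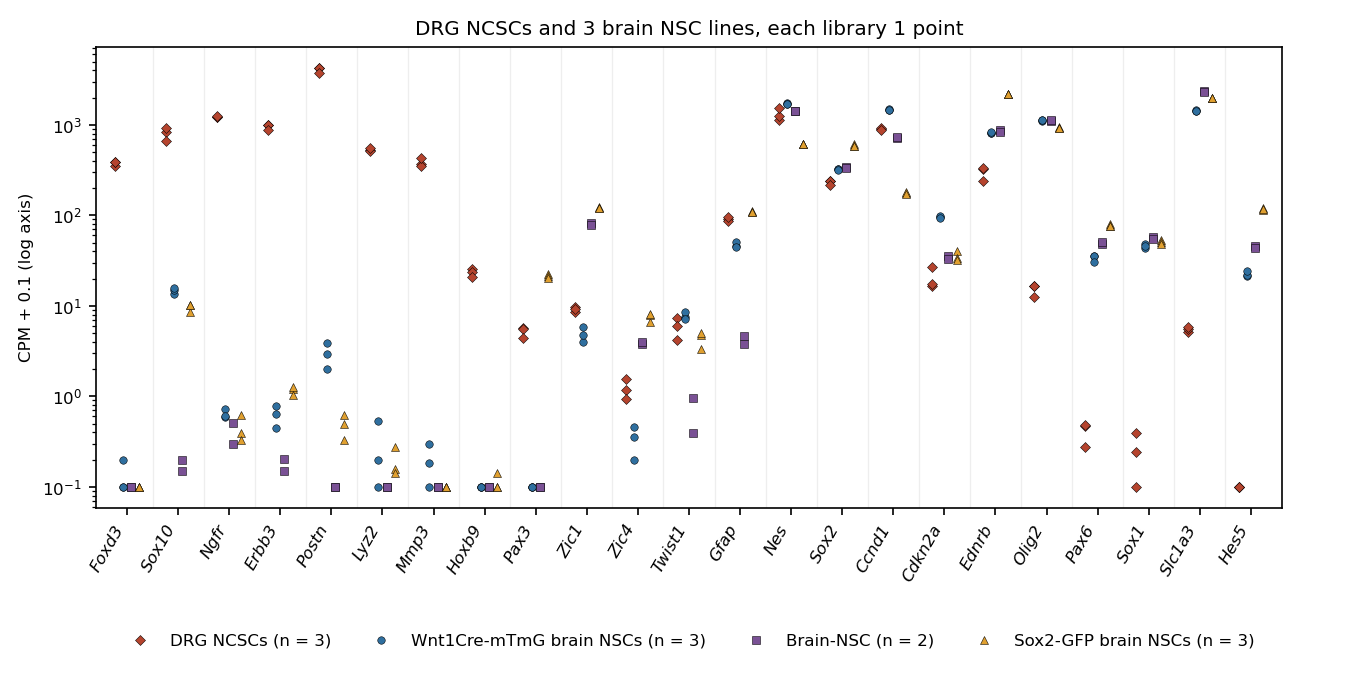
CPM + 0.1 on a log axis for 23 genes in each library of NCSCs (red diamonds) and of the 3 brain NSC lines, all 11 libraries scaled together. Crest, Schwann, matrix and leukocyte genes at the left are high in NCSCs alone. Central genes at the right (Olig2 to Hes5) are low in NCSCs alone. Pax3 to Ednrb in the middle vary between the brain lines.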

How the data were processed

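PolyA-selected RNA was sequenced in single-end mode. Alignment by the authors used HISAT2 (v2.2.1, genome GRCm38), annotation used Cufflinks (v2.2.1), and htseq-count (v1.99.2) gave reads per gene. The deposited values are raw read counts for 28244 genes. Strand setting, counting mode and annotation release are not given in the sources used here. Samples were grouped by their labels.

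Here, counts of 12 samples (NCSCs, brain NSCs and the study's Wnt1Cre-mTmG tail and DRG pNSCs, the peripheral NSC lines of the same experiment, 3 each) passed filterByExpr (10 as minimum count and 15 as minimum total), were scaled by TMM and fitted with edgeR 4.0.16 (R 4.3.3, quasi-likelihood, two-sided). All 4 groups share 1 estimate of the spread. Totals lay between 9846360 and 21970406 counts in the 6 samples compared, and intervals at 95% (exact binomial) and bounds cover counting error only. Replicates differed beyond counting error in every pair (chi-square test of counts over genes), so none was taken for a repeated deposit. The excess was small in brain NSCs, where the mean chi-square per gene was 1.15 to 1.19 and counting error alone gives 1. It was 2.25 between NCSC replicates 1 and 2, and 17.3 and 21.6 for the pairs with NCSC replicate 3. The spread of the brain libraries thus lay near counting error.

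Gene lists (37) and members were chosen with earlier results of these data known. The genes named are, of each list, the up to 4 called members of highest mean CPM, the study's markers and further members as examples, then the 12 largest rises and falls (called, mean of at least 10 CPM, no overlap), and genes farthest from the other NCSC libraries. Alternatives were DESeq2 1.42.0, limma 3.58.1 voom with quality weights, other scalings, filters, fold limits, a replicate block, thinning, other brain lines and leaving out each replicate. The fit was tested on simulated data. Gene positions and overlaps came from GENCODE M21: of 264 genes named with a comparison, 21 share exon sequence with another gene on the same strand and 75 on the opposite strand. Figures were made in matplotlib 3.10.9 (Python 3.11.15). Some genes are not reported here.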

Additional observations from a re-analysis of the deposited data

How the results depend on the processing

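The counts of genes called, called higher and called lower stayed within 1.5 times of 5336, 3192 and 2144 under every alternative except a filter at a mean count of 100 (3174, 1795 and 1379), no limit on the fold change (11804, 6064 and 5740) and a log2 limit of 2 (3089, 2090 and 999), which by construction test fewer genes or move the limit. Leaving out each replicate in turn gave 5274 to 5609 called, 3114 to 3391 higher and 2148 to 2231 lower, with the remaining pair of a group assumed to vary like the others. The labels number the replicates of both groups alike, but same-numbered samples did not deviate together (correlations of deviations from the group means of 0.0337, 0.0013 and 0.0152), so they share only a number. With that number as a replicate block 5328, 3187 and 2141 genes were called. DESeq2 called 5903. The quality weights of limma's voom were 1.19, 0.731 and 0.118 for NCSC replicates 1 to 3 and 1.23 to 1.32 for brain NSCs, and 5365 genes were called with them.

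Of 264 genes named with a comparison, 9 changed their call in the 15 alternatives that kept the brain line and the fold limit, and none changed direction. Cdk1 did so in 8, Gli2 in 7, Gata3 in 6, Gfap in 5, Ccng1 in 3, Cnp in 2, and Neurod1, Tgfbr1 and Zic1 in 1 each, the last without brain NSC replicate 1 (1.07). An alternative whose filter removed a gene was not counted as a change for it. Neurod1 and Gata3 were removed in the fit of only the samples compared and at a mean count of 100. Against Brain-NSC the direction turned for Zic4 (−1.70), Zic1 (−3.09), Twist1 (3.33), Pdgfra (0.96), Ccnd1 (0.35), Xist (−2.55), Ddx3y (13.39), Kdm5d (11.67), Eif2s3y (12.31) and Uty (11.36). Against Sox2-GFP brain NSCs it turned for Id4 (−0.96), Gfap (−0.25), Zic4 (−2.72), Zic1 (−3.72), Pax3 (−2.03), Twist1 (0.41), Nes (1.11), Acta2 (0.88), Flt1 (2.01), Ccnd1 (2.37), Apoe (−1.34), Ccng1 (0.32), Cdk1 (0.12), Gbp3 (1.09), Gpr17 (−1.65), Mcm2 (0.18) and Myrf (−0.37). The Y-linked values against Brain-NSC, where those genes had no count, depend on edgeR's prior count. The cause of these turns was not tested. Depth limits genes under about 0.3 CPM in brain NSCs.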
